A study of Mus musculus with 6 samples.

Results

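The 10 genes described here carry pyruvate into mitochondria or set the activity of the pyruvate dehydrogenase complex, and were taken by name: the kinases Pdk1, Pdk2, Pdk3 and Pdk4, the phosphatases Pdp1 and Pdp2, the complex subunits Pdha1 and Pdhb, and the pyruvate carriers Mpc1 and Mpc2. All 10 were among the 29385 genes in the expression tables, and all 10 passed the filter on low counts that left 16804 genes to test. Poly(A) RNA was sequenced from the hearts of mice 12 months after newborn mice were dosed, with 2 libraries in each of 3 groups. RH/+ vehicle hearts had 1 RH allele of Myh6, the gene of the alpha myosin heavy chain, beside a normal allele. RH/RQ vehicle hearts had the RH and RQ alleles and also received vehicle. RH/RQ AAV-hpCas13d hearts, called treated below, had the same RH/RQ genotype and received an adeno-associated virus carrying hpCas13d, a form of the RNA-cutting enzyme Cas13d. Every heart thus carried an RH allele, and no group was free of it. The labels do not spell out the alleles, the virus dose or its promoter, and do not tie each library to its own animal, so the tests weigh differences only against the spread between these libraries, which may be technical.

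The pyruvate dehydrogenase complex turns pyruvate into acetyl-CoA inside mitochondria and so joins glycolysis to the citric acid cycle. Pyruvate dehydrogenase kinases phosphorylate its E1 alpha subunit and switch the complex off, and the phosphatases remove the phosphate and switch it on. In heart muscle, Pdk4 is known as the kinase isoform that rises with fasting and fatty acid supply, through PPAR, FoxO and glucocorticoid receptor control, whereas Pdk2 is broadly expressed. Feeding state and time of collection were not among the sample details used here, and their part in the differences below was not tested.

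Values are CPM, the reads of a gene scaled to its library total, and fold changes were fitted with limma on log2(CPM + 1). The libraries held between 36269261 and 51017058 reads, so that 3 reads, the limit that a count of 0 allows, correspond to 0.0588 to 0.0827 CPM (counting error only). Ventricular cardiomyocyte markers, 10 of 10 detected, include Myh6 itself. Limma called 0 of these markers in each comparison, while DESeq2 called 5 lower in RH/RQ vehicle and 2 lower in treated hearts than in RH/+. Over all genes tested, limma called 4.99% in RH/RQ vehicle against RH/+, 2.05% in treated against vehicle RH/RQ and 2.86% in treated against RH/+. These markers summed to 72658 and 77669 CPM in RH/+, 65063 and 68343 in RH/RQ vehicle and 70906 and 70961 in treated hearts. Fibroblast markers, 10 of 10 detected, summed to 2241 and 2668, 3380 and 3215, and 3881 and 3347 CPM in the same order. Macrophage markers summed to 213 and 218, 298 and 284, and 275 and 231 CPM. Atrial cardiomyocyte markers, 7 of 7 detected, summed to 140 and 178 CPM in RH/+, 139 and 156 in RH/RQ vehicle and 470 and 792 in treated hearts. The filter on low counts left 5 of the 7 to test. Nppa was called higher in treated hearts than in either vehicle group and Dkk3 higher than in RH/+. In treated against vehicle RH/RQ hearts 4 of the 5 had a log2 difference above 0 and 1 below. In treated hearts against RH/+ 3 were above 0 and 2 below. Red blood cell markers, 5 of 5 detected, summed to 251 and 302, 230 and 348, and 184 and 158 CPM, and treated hearts had 3 globin genes of this list called lower than in vehicle RH/RQ hearts and 4 lower than in RH/+. The part of these cell types in the differences of treated hearts given below was not tested. In bulk tissue, fewer cells of a type and less RNA per cell cannot be told apart. Xist, the RNA of the inactive X chromosome in females, was at 280 and 265 CPM in RH/+, 0.274 and 0.0516 in RH/RQ vehicle and 299 and 326 in treated hearts, and 4 of 4 listed Y-linked genes were called higher in RH/RQ vehicle than in RH/+. Sex therefore cannot be told apart from genotype or treatment in the comparisons that use the RH/RQ vehicle group. Between treated RH/RQ and RH/+ hearts limma called 0 of the 5 sex-linked genes, with 0 at an unadjusted p under 0.05.

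Across the 10 genes, limma called 3 in RH/RQ vehicle against RH/+ (Pdk4 higher, Pdk2 and Mpc2 lower), where 4.99% of all genes tested were called, 3.48% higher and 1.51% lower. It called 2 in treated against vehicle RH/RQ (Pdk2 higher, Pdk4 lower), where 2.05% of all genes were called, 1.22% higher and 0.827% lower. In treated RH/RQ against RH/+ it called 2 (Pdk4 higher, Pdp2 lower), where 2.86% were called, 2.33% higher and 0.53% lower. The median log2 difference of the 10 genes was -0.17, 0.09 and -0.09 in these comparisons, beside 0.04, 0.04 and 0.08 over all genes tested. Groups did not overlap for 8, 7 and 5 of the 10 genes, beside 49.3%, 40.5% and 44.7% of all genes. The 3 comparisons share libraries: each group enters 2 of them. The share of all genes at an unadjusted limma p under 0.05 was not counted, so counts at that cut-off stand without it. By unadjusted limma p, Pdp2 at 0.03 ranked 2260 of 16804 genes in RH/RQ vehicle against RH/+. Pdk3 at 0.0499 ranked 2542 in treated against RH/+. Such p-values were thus common among all genes in these 2 comparisons.

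**Figure D1:**
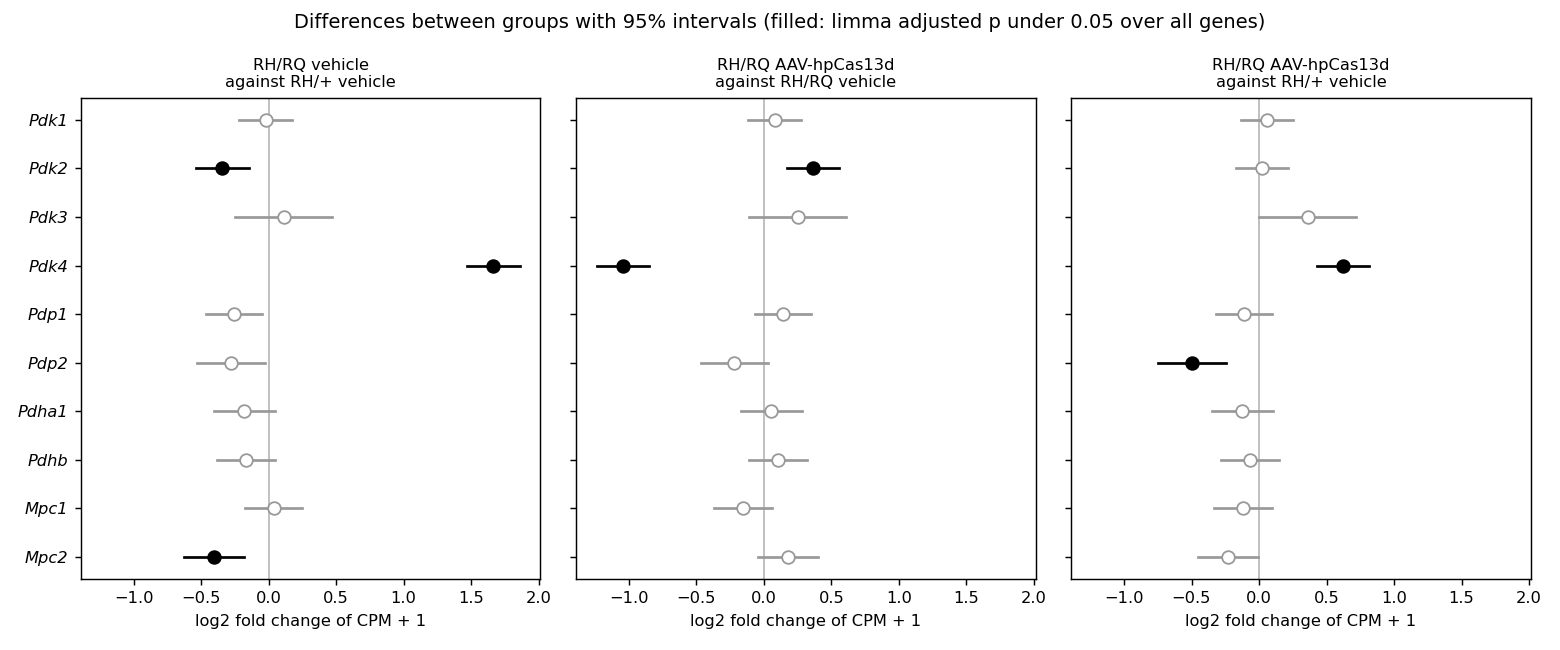
Fitted log2 fold change of CPM + 1 (horizontal axis) with its 95% interval for each gene in the 3 comparisons; filled points passed limma's adjusted p of 0.05 over all genes tested. Pdk4 lies at 1.66, -1.04 and 0.62, and the other 9 genes lie between -0.50 and 0.37.

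Pdk4 RNA was highest in RH/RQ vehicle hearts, lower in treated hearts and lowest in RH/+ hearts. Its level was 146 and 149 CPM in RH/+, 461 and 478 in RH/RQ vehicle, and 213 and 243 in treated hearts. No library of one group reached the range of another. The mean in RH/RQ vehicle hearts was 3.18-fold that in RH/+ (469 ± 12.5 against 147 ± 2.07 CPM, SD, n = 2 each), which limma put at 1.66 on the log2 scale (SE 0.09, adjusted p = 2.64e-11). In treated hearts the mean was 0.485 of that in RH/RQ vehicle hearts, or -1.04 on the log2 scale by limma (SE 0.09, adjusted p = 1.53e-07). Treated hearts stayed above RH/+ hearts at 228 ± 21.5 CPM (SD, n = 2), 1.55-fold, or 0.62 on the log2 scale by limma (SE 0.09, adjusted p = 0.000272). Among the 16804 genes tested, the rise in RH/RQ vehicle ranked 22 from the top by log2 fold change, and the difference of treated from vehicle RH/RQ hearts ranked 27 from the bottom. Pdk4 was called in RH/RQ vehicle against RH/+ and in treated against vehicle RH/RQ under all 19 alternatives. Against RH/+, the call in treated hearts was lost against a fold of 1.5 and when low genes were left in. Pdk4 is also abundant in fat, and white adipocyte markers summed to 0.814 and 8.07 CPM in RH/+, 0.157 and 0 in RH/RQ vehicle and 0.607 and 0.501 in treated hearts. The RH/+ sum rests mostly on 1 library, and the part of fat cells in the Pdk4 values was not tested.

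**Figure D2:**
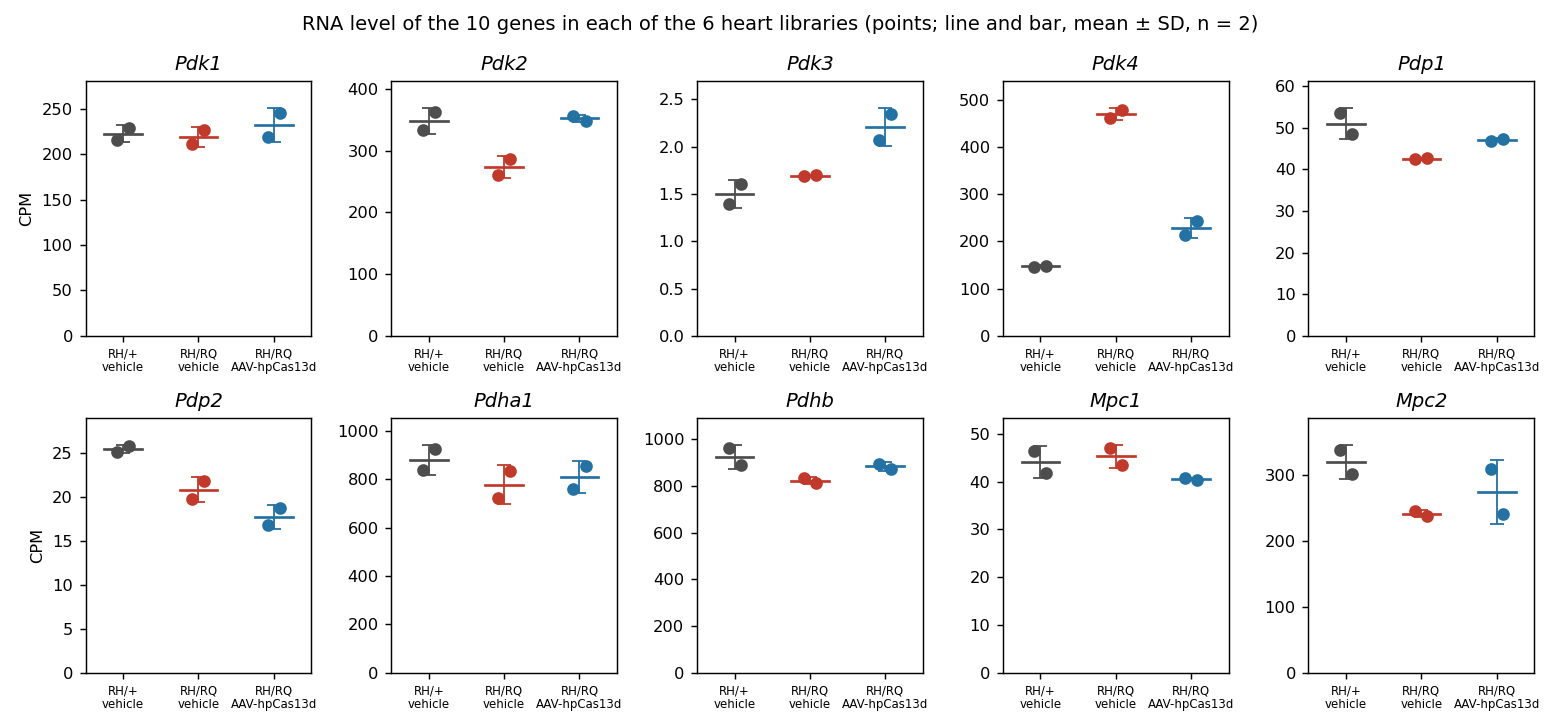
CPM of each of the 10 genes (vertical axes from 0, scaled per gene) in the 6 libraries, shown as points by group, with the mean as a line and the SD as a bar (n = 2). Pdk4 lies at 461 and 478 CPM in RH/RQ vehicle and at or below 243 CPM in the other 4 libraries, while Pdk2 is lowest in RH/RQ vehicle.

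Pdk2, the broadly expressed kinase, moved the other way. It stood at 333 and 363 CPM in RH/+, 261 and 287 in RH/RQ vehicle, and 357 and 349 in treated hearts. Both RH/RQ vehicle libraries lay below the other 4, and the treated and RH/+ ranges overlapped. The mean in RH/RQ vehicle hearts was 0.788 of that in RH/+, or -0.34 on the log2 scale by limma (SE 0.09, adjusted p = 0.0343). That call was lost without any one of the 4 libraries compared, with no filter on low genes, and against a fold of 1.5. Treated hearts had 1.29-fold the mean of vehicle RH/RQ hearts, or 0.37 on the log2 scale by limma (SE 0.09, adjusted p = 0.0428). The latter call was lost in 14 of 19 alternatives, edgeR and DESeq2 among them, while the log2 fold change stayed between 0.30 and 0.43. Treated and RH/+ hearts differed by 0.02 on the log2 scale (95% interval -0.17 to 0.22).

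The genes lie on 9 chromosomes in GENCODE M21 on GRCm38 (mm10), where Pdk4 spans 5483351 to 5496309 of chromosome 6 and Pdk2 spans 95026258 to 95041354 of chromosome 11, both on the minus strand. Because these kinase genes moved in opposite directions, the sequence before their start sites is shown, from RefSeq on GRCm38.p6, read 5′ to 3′ on the gene's strand. Capitals mark CCAAT boxes, which appear here as their reverse complement ATTGG. For Pdk4 the bases that GENCODE places in the first exon are left off.
Pdk4 chr6:5496310-5496528: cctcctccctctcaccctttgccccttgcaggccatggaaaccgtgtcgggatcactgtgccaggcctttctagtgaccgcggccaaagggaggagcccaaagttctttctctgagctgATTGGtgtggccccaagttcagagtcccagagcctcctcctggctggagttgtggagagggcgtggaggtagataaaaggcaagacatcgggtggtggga
Pdk2 chr11:95041372-95041621: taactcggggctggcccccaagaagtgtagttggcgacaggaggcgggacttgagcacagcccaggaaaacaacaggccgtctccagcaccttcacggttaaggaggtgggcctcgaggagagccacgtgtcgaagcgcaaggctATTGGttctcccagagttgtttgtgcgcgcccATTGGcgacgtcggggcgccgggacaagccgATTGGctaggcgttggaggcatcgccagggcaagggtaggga
The 250 bases before each start site were searched on both strands for 5 motifs. Pdk4 held 1 CCAAT box and Pdk2 held 3, and 33.8% of 32851 promoters of this length held at least 1. TATAAA (in 12.4% of promoters), GGGCGG (32.7%), AGGTCA (14.0%) and GTAAACA (3.17%) were found in neither window. A match of letters describes the window only.

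Neither Pdk1 nor Pdk3 passed in the 3 comparisons. Pdk1, a kinase that hypoxia is known to induce, was at 216 and 229 CPM in RH/+, 211 and 226 in RH/RQ vehicle and 218 and 245 in treated hearts. The 3 ranges overlapped, and the 95% interval of the log2 difference of RH/RQ vehicle from RH/+ was -0.22 to 0.17. Pdk3, an X-linked kinase gene, was the lowest of the 10 genes per kilobase, at 1.39 and 1.60 CPM in RH/+, 1.69 and 1.70 in RH/RQ vehicle and 2.07 and 2.35 in treated hearts. These values rest on 53 to 89 reads per library. Its ranges did not overlap, but the log2 difference of treated from RH/+ hearts, 0.36 (SE 0.17), had a limma adjusted p of 0.33.

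The make-up of the kinase RNA pool differed between groups by more than the spread between libraries. Levels of different genes are compared here as CPM per kilobase of exon. Pdk4 made up 23.7% and 22.7% of the summed Pdk1 to Pdk4 level in RH/+ libraries, 54.3% and 53.1% in RH/RQ vehicle, and 29.9% and 32.7% in treated hearts. Pdk2 made up 60.1% and 61.3%, 34.2% and 35.3%, and 55.8% and 52.0% in the same order. Pdk2 was thus the leading kinase RNA in RH/+ and treated hearts, and Pdk4 in RH/RQ vehicle hearts, where only Pdhb and Pdha1 of the 10 genes lay above it. The summed kinase level was 181 ± 8.45, 249 ± 10.7 and 207 ± 6.73 CPM per kilobase in RH/+, RH/RQ vehicle and treated hearts (SD, n = 2 each). The ratio of kinase to phosphatase RNA was 10.7 and 12.2 in RH/+, 18.7 and 19.3 in RH/RQ vehicle, and 15.2 and 15.3 in treated hearts. The group ranges of the ratio did not overlap. These shares and ratios were not tested.

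**Figure D3:**
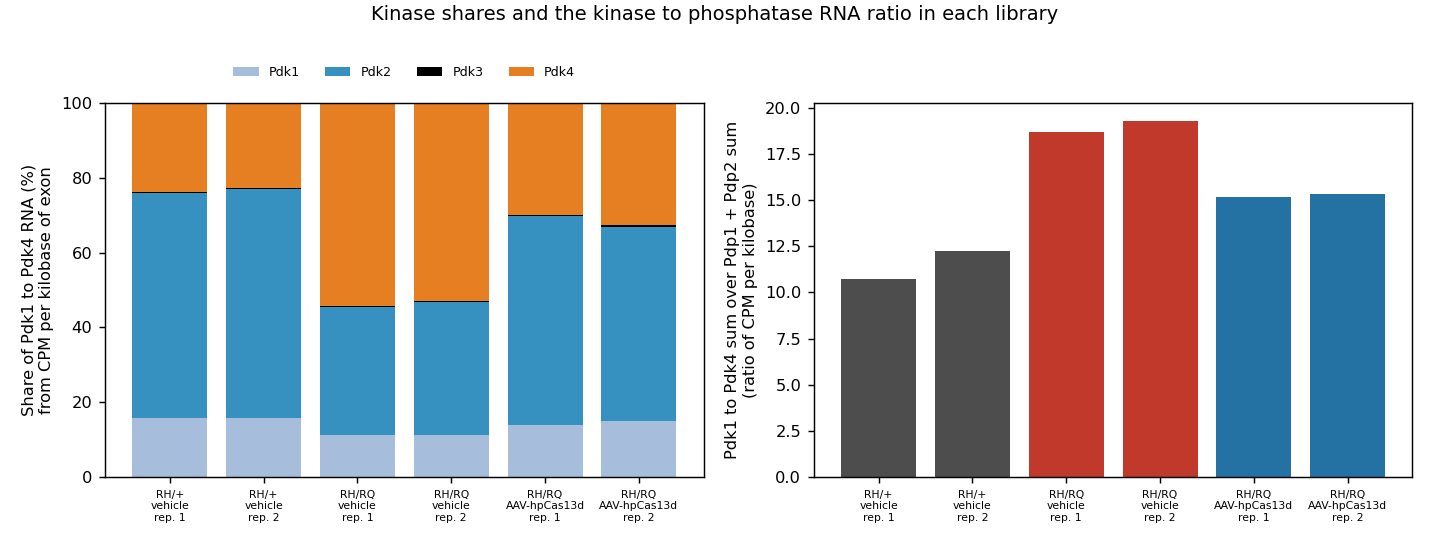
Left, share of each kinase (percent, from CPM per kilobase of exon) in the summed Pdk1 to Pdk4 level of each library. Right, summed Pdk1 to Pdk4 level over the summed Pdp1 and Pdp2 level (ratio, axis from 0). Pdk4 holds 54.3% and 53.1% in the RH/RQ vehicle libraries, and the ratio is highest there at 18.7 and 19.3.

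Of the phosphatases, which switch the complex back on, Pdp2 was lower in treated RH/RQ hearts than in RH/+ hearts, and no other difference passed the test. Pdp2 (chromosome 8, 104591451 to 104599026, plus strand) was at 25.1 and 25.8 CPM in RH/+, 19.8 and 21.8 in RH/RQ vehicle, and 16.8 and 18.7 in treated hearts. Its 3 ranges did not overlap. Treated hearts had 0.698 of the RH/+ mean, or -0.50 on the log2 scale by limma (SE 0.12, adjusted p = 0.0224). That call was lost without either RH/+ library, without treated replicate 1, against a fold of 1.5 and with low genes left in. In RH/RQ vehicle the log2 difference from RH/+ was -0.28 (SE 0.12, limma adjusted p = 0.223). Pdp1, the calcium-sensitive phosphatase, was at 53.6 and 48.5, 42.5 and 42.7, and 46.9 and 47.4 CPM in the 3 groups. The RH/RQ vehicle libraries were lowest, and the log2 difference from RH/+ was -0.26 (SE 0.10, limma adjusted p = 0.172).

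Neither listed subunit of the complex passed the test. Pdha1, the X-linked gene of the E1 alpha subunit that the kinases phosphorylate, was at 837 and 924, 722 and 835, and 761 and 855 CPM in RH/+, RH/RQ vehicle and treated hearts. Pdhb, the gene of the E1 beta subunit, was at 961 and 890, 833 and 812, and 897 and 872 CPM. For both genes the RH/RQ vehicle libraries lay below the RH/+ range, though for Pdha1 1 of them, at 835 CPM, nearly reached its lower end of 837. The log2 differences were -0.18 (95% interval -0.41 to 0.05) for Pdha1 and -0.17 (-0.38 to 0.04) for Pdhb. Pdha1 shares 603 exon bases with Map3k15 on the other strand, which was at 1.21 to 2.05 CPM, and the strand setting of the counting is not given in the sources used here.

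Of the carriers that bring pyruvate across the inner mitochondrial membrane, Mpc2 (chromosome 1, 165460637 to 165481214, plus strand) was lower in RH/RQ vehicle hearts. It stood at 339 and 302 CPM in RH/+, 245 and 238 in RH/RQ vehicle, and 310 and 241 in treated hearts. Both vehicle groups stood apart from each other, and 1 treated library fell within the range of each. RH/RQ vehicle hearts had 0.755 of the RH/+ mean, or -0.40 on the log2 scale by limma (SE 0.11, adjusted p = 0.0287). The call was lost without RH/+ replicate 1, without either RH/RQ vehicle library, with no filter on low genes and against a fold of 1.5. Without treated replicate 2, Mpc2 was called higher in treated than in vehicle RH/RQ hearts, and without treated replicate 1 it was called lower in treated than in RH/+ hearts. Mpc1 was at 46.5 and 41.8, 47.0 and 43.6, and 40.8 and 40.4 CPM, and did not pass the test. Its counts are uncertain, because the processed pseudogene Mpc1-ps matches it over 330 bases at 99.7% identity and held 148 to 179 CPM. With such pseudogene reads added, Mpc1 was at 226 and 205, 204 and 194, and 218 and 188 CPM, and the sign of its difference between RH/RQ vehicle and RH/+ changed from 0.04 to -0.11 on the log2 scale, with a limma adjusted p of 0.611. Mpc1 also shares 480 exon bases with 4930506C21Rik on the other strand. That gene was at 1.71 and 1.98, 3.65 and 3.17, and 1.76 and 2.21 CPM. It was called higher in RH/RQ vehicle than in RH/+ (limma adjusted p = 0.0407).

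Other genes of pyruvate handling were lower in RH/RQ vehicle than in RH/+ hearts where they were called. Of 13 listed genes of pyruvate supply and its other fates, 4 fell and 0 rose, where 1.51% of all genes tested were called lower and 3.48% higher. Slc16a7, a monocarboxylate transporter, was at 11.5 and 7.99 CPM in RH/+ against 5.53 and 4.38 in RH/RQ vehicle (-0.84 on the log2 scale, SE 0.18, limma adjusted p = 0.00497). Bsg, the chaperone of such transporters, was at 1119 and 1270 against 806 and 937 CPM (limma adjusted p = 0.0198). The alanine aminotransferases Gpt and Gpt2, which interconvert pyruvate and alanine, had log2 fold changes of -0.51 (limma adjusted p = 0.00832) and -0.37 (limma adjusted p = 0.0361). For all 4 genes, which were picked by their calls here, the groups did not overlap, as for 49.3% of all genes tested. Each call was lost without at least 1 RH/+ or RH/RQ vehicle library. The list's median was -0.19, beside 0.04 for all genes. In treated against vehicle RH/RQ hearts limma, edgeR and DESeq2 each called 0 of the 13, with 2 at an unadjusted limma p under 0.05. Limma called 2.05% of all genes tested there.

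For the 6 tested genes of the remaining complex subunits and of lipoylation, limma called 0 in each comparison, with 1, 0 and 0 at an unadjusted p under 0.05. Over all genes tested, 4.99%, 2.05% and 2.86% were called in the same comparisons, so a count of 0 among so few genes is close to those shares. DESeq2 called 1 of them lower in RH/RQ vehicle against RH/+, and edgeR called 0. Dld, the E3 subunit, was at 581 and 541, 486 and 478, and 494 and 505 CPM, and Dlat, the E2 subunit, was at 406 and 421, 406 and 424, and 369 and 387 CPM. Of 17 citric acid cycle genes, all 17 had a log2 difference below 0 in RH/RQ vehicle against RH/+, with a median of -0.20 beside 0.04 for all genes. All 17 were also below 0 in treated hearts against RH/+, with a median of -0.05 beside 0.08. In treated against vehicle RH/RQ hearts 15 of the 17 were above 0, or 12 with TMM scaling. In RH/RQ vehicle against RH/+ limma called 0 of the 17, beside 4.99% of all genes tested, and 7 had an unadjusted p under 0.05. There edgeR called 1 lower and DESeq2 called 4 lower. Ogdh, a subunit of the oxoglutarate dehydrogenase complex, was at 1809 and 2106 CPM in RH/+ against 1650 and 1979 in RH/RQ vehicle, so its ranges overlapped, and Idh2, a mitochondrial isocitrate dehydrogenase, was at 1848 and 2004 against 1625 and 1766 CPM. Summed ventricular cardiomyocyte markers, Myh6 included, were also lower in RH/RQ vehicle hearts, at 65063 and 68343 against 72658 and 77669 CPM. Limma called 0 of these markers and DESeq2 called 5 lower, and their part in this was not tested.

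Among 19 regulators known to act on Pdk4, limma called 2 lower and 0 higher in RH/RQ vehicle against RH/+. Over all genes tested, 1.51% were called lower and 3.48% higher. Klf15, a glucocorticoid-induced transcription factor of fasting metabolism, was at 40.5 and 42.3 CPM in RH/+, 23.3 and 24.7 in RH/RQ vehicle and 53.5 and 41.5 in treated hearts. The RH/RQ vehicle libraries were the lowest, opposite to Pdk4. Klf15 fell by 0.76 on the log2 scale in RH/RQ vehicle against RH/+ (SE 0.12, limma adjusted p = 0.000186) and was 0.95 higher in treated than in vehicle RH/RQ hearts (SE 0.12, limma adjusted p = 2.45e-05). Ppargc1a, the coactivator PGC-1 alpha of mitochondrial genes, was at 133 and 120 CPM in RH/+ against 94.3 and 94.0 in RH/RQ vehicle (-0.42 on the log2 scale, SE 0.10, limma adjusted p = 0.0127). That call was lost without RH/+ replicate 1 and without either RH/RQ vehicle library. The 2 treated libraries were at 110 and 133 CPM. Limma did not call the other 17 regulators, PPAR and FoxO genes among them, in RH/RQ vehicle against RH/+. Of the 19, 7 had an unadjusted limma p under 0.05, with the 2 called genes included. With edgeR, DESeq2, TMM or RLE scaling 3 of the 19 were called lower, and with scaling by nuclear genes 2 were called lower and 1 higher.

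Most of the other PPAR target genes, a group to which Pdk4 belongs, did not pass the test. Of 32 tested, limma called 3 higher, 2 lower and 27 not in RH/RQ vehicle against RH/+, with 10 at an unadjusted p under 0.05. Over all genes tested, 3.48% were called higher and 1.51% lower in that comparison. The median log2 difference of the list was -0.03, beside 0.04 for all genes. Angptl4, an inhibitor of lipoprotein lipase, was at 3.91 and 3.78 CPM in RH/+, 9.84 and 8.20 in RH/RQ vehicle and 6.62 and 4.85 in treated hearts. It rose by 1.04 on the log2 scale (SE 0.17, limma adjusted p = 0.000514). Ucp3, a mitochondrial carrier, and G0s2, an inhibitor of triglyceride lipase, were also highest in RH/RQ vehicle hearts. Ucp3 was at 29.3 and 27.7, 37.4 and 41.2, and 30.9 and 27.3 CPM, and G0s2 at 69.2 and 65.1, 98.6 and 86.4, and 72.8 and 54.7 CPM. Both were called higher in RH/RQ vehicle than in RH/+ (limma adjusted p = 0.0166 and 0.0197) and lower in treated than in vehicle RH/RQ hearts (limma adjusted p = 0.0472 and 0.0102). In RH/RQ vehicle against RH/+, both calls were lost without either RH/+ library, and also without RH/RQ vehicle replicate 2 for Ucp3 and without replicate 1 for G0s2. In treated hearts the Ucp3 call was lost in 9 alternatives, and the G0s2 call in 4, among them without RH/RQ vehicle replicate 1 and without treated replicate 2. Ech1, an enzyme of fatty acid oxidation named after its values were seen, was lower at 1142 and 1088 CPM in RH/RQ vehicle against 1484 and 1493 CPM in RH/+ (limma adjusted p = 0.0356). In treated hearts against RH/+, Decr1, an enzyme of fatty acid oxidation, was called lower and Cpt1b, the muscle carnitine palmitoyltransferase, higher (limma adjusted p = 0.0159 and 0.0329). The Cpt1b call was lost in 8 alternatives. The Decr1 call was lost in 5, among them without either RH/+ library, while its log2 fold change stayed between -0.52 and -0.35.

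Of 22 tested genes known as FoxO or glucocorticoid targets, 8 were called higher by limma in treated against vehicle RH/RQ hearts, 0 lower and 14 not. Over all genes tested, 1.22% were called higher and 0.827% lower. The list's median log2 difference was 0.28 beside 0.04 for all genes. Per1, a clock gene with a glucocorticoid response, was at 17.6 and 19.5 CPM in RH/+, 19.8 and 19.6 in RH/RQ vehicle, and 59.1 and 47.6 in treated hearts. Ddit4, a stress-induced inhibitor of mTORC1 signalling, was at 60.1 and 68.6, 58.6 and 54.8, and 165 and 124 CPM, and Tsc22d3, which encodes GILZ, was at 81.2 and 84.8, 82.5 and 71.7, and 171 and 157 CPM. The treated libraries lay above all others for these 3 genes, with log2 fold changes of 1.38, 1.32 and 1.08 over vehicle RH/RQ hearts (limma adjusted p = 9.66e-08, 9e-08 and 1.53e-07). Against RH/+, treated hearts had 8 called higher and 0 lower, beside 2.33% and 0.53% of all genes, with a median of 0.36 beside 0.08. With TMM scaling, 6 were called higher and 1 lower in each of these comparisons. In RH/RQ vehicle against RH/+, where Pdk4 rose most, 4 of the 22 rose (Txnip, Cdkn1a, Bnip3 and Errfi1) and 2 fell (Zbtb16 and Pik3ip1, named after their values were seen), with a median of 0.01. In that comparison 3.48% of all genes tested were called higher and 1.51% lower. The Txnip call was lost in 5 alternatives, among them without either RH/+ library, while its log2 fold change stayed between 0.36 and 0.58.

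**Figure D4:**
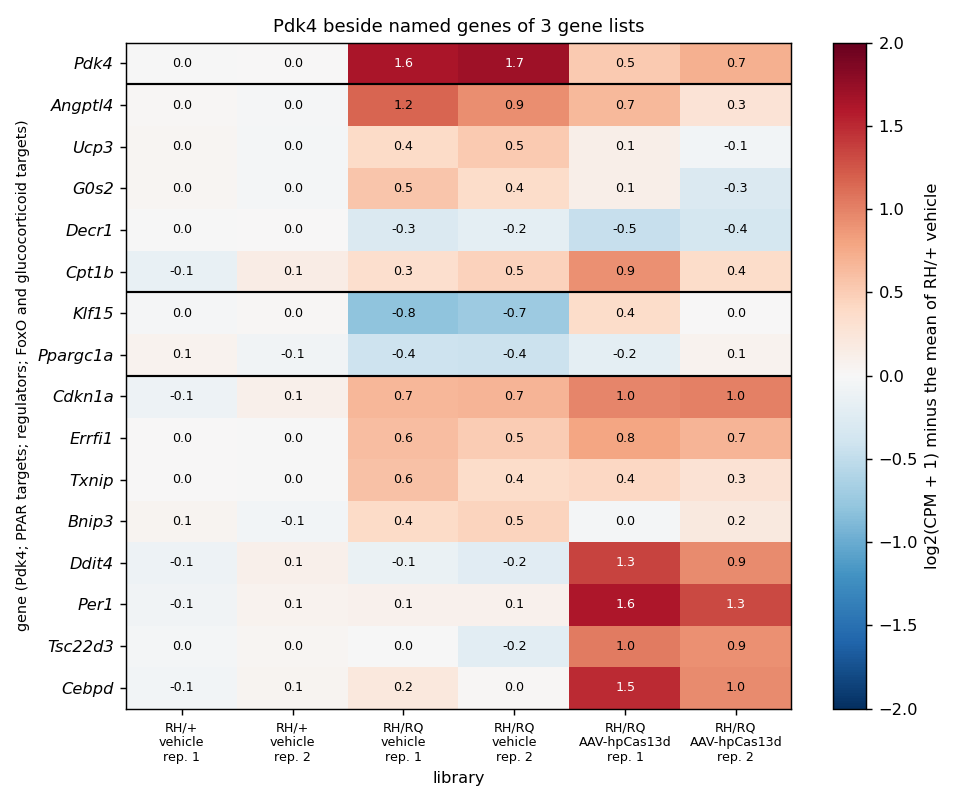
Difference of log2(CPM + 1) from the mean of the RH/+ vehicle libraries (colour and printed value) for Pdk4 and named genes of the PPAR target, regulator and FoxO and glucocorticoid target lists (rows) in the 6 libraries (columns). Ucp3 and G0s2 are highest in the RH/RQ vehicle libraries as Pdk4 is, while Per1, Ddit4, Tsc22d3 and Cebpd are highest in the treated libraries.

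The 5 genes whose log2(CPM + 1) over the 6 libraries was most like that of Pdk4, among 135 candidates (mean CPM 10 or more, log2 range 1 or more), were Igf1, Serpina3n, Col5a2, Dnajb1 and B3galt2. Pearson's r was 0.989, 0.985, 0.981, 0.981 and 0.979, over 6 libraries that share 3 groups, so it mostly restates the group means. Igf1, a growth factor, was at 15.1 and 14.7 CPM in RH/+, 33.0 and 38.4 in RH/RQ vehicle and 20.3 ± 0.355 CPM (SD, n = 2) in treated hearts. Serpina3n, an acute-phase serine protease inhibitor, was at 7.27 and 8.94, 35.1 and 40.0, and 16.6 and 18.9 CPM. Col5a2 is a fibrillar collagen gene. Of the 10 fibroblast markers, 7 were called higher in RH/RQ vehicle than in RH/+, beside 3.48% of all genes. In treated against vehicle RH/RQ hearts 3 were called lower (Col1a1, Col1a2 and Col3a1), 0 higher and 7 not, beside 0.827% of all genes called lower. In the latter comparison 6 of the 10 had a log2 difference above 0, with a median of 0.03 beside 0.04 for all genes, and the summed markers were at 3881 and 3347 CPM in treated against 3380 and 3215 CPM in vehicle RH/RQ hearts. The part of fibroblasts in these values was not tested.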

How the data were processed

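RNA-seq of 6 mouse heart libraries was read from 3 deposited tables. The submitters' processing notes name HISAT2, HTSeq, DESeq2 and mm10; versions, strand setting and annotation are not given in the sources used here. The authors deposited gene levels as CPM. Per the file headers the same deposited tables hold a mean signal per gene, p-values raw and adjusted, a score for the test, and log2 fold changes beside their errors. Every CPM was a whole multiple of 1 read (100% of values, tolerance 0.001), so reads were recovered. The test planned for CPM was used: limma 3.58.1 in R 4.3.3 with a trend on log2(CPM + 1), scale by library total, all 6 libraries in 1 fit of 3 group means, two-sided, on the 16804 genes kept by filterByExpr (minimum count 10). Benjamini-Hochberg adjustment was over all of them, with calls at an adjusted p under 0.05. A fold change on this scale understates changes of low genes. Both libraries of each group differed beyond sampling noise (mean chi-square per gene 13.4, 18.0 and 25.9).

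Exon lengths came from GENCODE M21 and promoters from RefSeq (9 of the 10 genes matched). Near-identical transcripts were sought with blastn at 90% identity over 200 bases. Alternatives were edgeR 4.0.16, DESeq2 1.42.0, TMM, RLE and nuclear scaling, 2 other filters, 4 libraries alone, a replicate block, pseudocounts of 0.1 and 5, leaving out each library, and a fold of 1.5. Adding pseudogene reads, all alternatives for the lists, and shares without each library were chosen after seeing the data. Each test was tested on simulated data. There limma recovered 53.7% to 62.7% of 1.5-fold and 83.6% to 85.1% of 2-fold changes, with 5 to 19 false calls. Changes of these sizes can thus go uncalled.

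The genes and lists were chosen with earlier results of these data known. All 10 genes are named; from each list the called genes are named, at most 4 per comparison by smallest p, or the 2 of highest level where none was called. The genes most like Pdk4 are the 5 of highest Pearson r. A gene that this rule would name is not reported here.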

Additional observations from a re-analysis of the deposited data

How the results depend on the processing

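No log2 fold change of the 10 genes that was called changed direction under any of the 19 alternatives. Limma called 3, 2 and 2 of the 10 genes in RH/RQ vehicle against RH/+, treated against vehicle RH/RQ, and treated against RH/+. With no filter on low genes these became 1, 1 and 0, and against a fold of 1.5 likewise 1, 1 and 0. In treated against vehicle RH/RQ, 1 gene was called with edgeR, DESeq2, TMM, RLE, nuclear scaling, 4 libraries alone or a pseudocount of 5. Leaving out each library gave 1 to 3, 1 to 3, and 1 to 2 of the 10. Over all genes the calls, 838, 344 and 480, became 57, 15 and 7 with no filter and 48, 24 and 19 against a fold of 1.5, and ranged from 343 to 1156, 134 to 613 and 172 to 703 when each library was left out. With a replicate block by the leading digit of the titles they were 1173, 567 and 715, and the same 10-gene calls were made. Same-numbered libraries did not all deviate together (correlations 0.13, -0.02 and 0.07). With 2 libraries per group, such correlations cannot decide whether the digit marks a batch or a pairing. The labels do not say what it marks, and the main fit left it out. Of 36 called differences of the named genes of the pathway lists, 34 were lost with no filter (all but Per1 and Tsc22d3 in treated against vehicle RH/RQ) and 31 against a fold of 1.5. The causes were not tested.

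With the longest transcript as length, the Pdk4 share was 17.6%, 45.0% and 24.4% in RH/+, RH/RQ vehicle and treated hearts, the Pdk2 share 64.3%, 40.7% and 58.6%, and the kinase to phosphatase ratio 14.5, 21.7 and 18.7. With CPM and no length they were 20.5%, 48.7% and 27.9%, then 48.4%, 28.4% and 43.4%, and 9.41, 15.2 and 12.5. The order of the groups was the same in each. With 2 libraries per group, each called difference of Pdk2, Mpc2 and Pdp2 was lost without at least 1 single library.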

Other observations

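Of 20 genes of glucose uptake and glycolysis, 1 rose and 1 fell in RH/RQ vehicle against RH/+, where 4.99% of all genes tested were called. In that comparison 17 of the 20 had a log2 difference below 0 (median -0.13, beside 0.04 for all genes), or 14 of the 20 with scaling by nuclear genes. In treated against vehicle RH/RQ hearts 17 of the 20 had one above 0 (median 0.13, beside 0.04), or 14 of the 20 with TMM scaling. Limma, edgeR and DESeq2 each called 0 there, where limma called 2.05% of all genes tested. Of the 20, 6 had an unadjusted limma p under 0.05. Pfkp, a phosphofructokinase isoform, was at 77.4 and 74.3 CPM in RH/+, 115 and 111 in RH/RQ vehicle and 102 and 115 in treated hearts (limma adjusted p = 0.000458 for RH/RQ vehicle and 0.00233 for treated against RH/+). Eno3, the muscle enolase, was at 1175 and 1218 CPM in RH/+ against 821 and 887 in RH/RQ vehicle (limma adjusted p = 0.00585). The Eno3 call was lost in 5 alternatives, among them without either RH/+ library, while its log2 fold change stayed between -0.54 and -0.43. Pfkfb1, of the bifunctional enzyme that sets fructose 2,6-bisphosphate, was lower in treated hearts at 7.53 and 4.64 CPM against 12.9 and 14.4 CPM in RH/+ (limma adjusted p = 0.00104). Of 15 hypoxia targets, Bnip3 rose and Egln3, an oxygen-sensing hydroxylase, fell in RH/RQ vehicle against RH/+ (limma adjusted p = 0.0129 and 0.000509). The Bnip3 call was lost without any one of the 4 libraries compared, whereas the Egln3 call was kept without each of them.

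Of 10 genes of mitochondrial calcium uptake and deacylation, limma called 0 in each comparison, with 2, 1 and 1 at an unadjusted p under 0.05. Over all genes tested, 4.99%, 2.05% and 2.86% were called in the same comparisons. DESeq2 called 1 lower in RH/RQ vehicle against RH/+, and edgeR called 0. Smdt1, a subunit of the calcium uniporter, was at 135 and 131, 110 and 104, and 161 and 123 CPM in the 3 groups, and Micu2, which gates the uniporter, at 101 and 104, 107 and 116, and 109 and 110 CPM.

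In the authors' deposited table the log2 fold change of Pdk4 was 1.62, -1.10 and 0.52 in RH/RQ vehicle against RH/+, treated against vehicle RH/RQ, and treated against RH/+. For Pdk2 the adjusted p in the authors' deposited table was 0.00148 in RH/RQ vehicle against RH/+ and 0.161 in treated against vehicle RH/RQ.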
